A study of Mus musculus with 6 samples.

Results

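Immediate early genes are genes that cells switch on within minutes of a growth signal or a stress, before any protein has to be made. Of the 10 such genes considered here, which were taken from a fixed list and matched by single gene symbol to the array annotation, 9 were measured in mouse liver. They were Fos, Jun, Junb, Jund, Egr1, Ier2, Btg2, Zfp36 and Dusp1, out of 15045 genes measured in all. No probe set was matched to Fosb by this rule, so it was not analysed here. The livers came from 3 control mice, labelled wild type, and 3 Dhx32-/- mice, which carry a mutant allele on both copies of the DEAH-box helicase gene Dhx32. All 6 were males of 6 to 8 weeks, their tissue was snap frozen, and each liver was read on 1 Affymetrix exon array. The labels do not say what kind of mutation this is or on which background the mice were bred. Whether the mice of a group were littermates is not stated either, so the p-values measure the spread between these 6 samples.

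Immediate early transcripts are normally scarce in resting tissue and are known to rise sharply in liver after partial removal of the organ, growth factor treatment, inflammation or rough handling. ERK kinases act on the serum response factor and its partners, cyclic AMP acts on CREB, and stress kinases act on JUN and ATF proteins. Many of the transcripts are short-lived because AU-rich elements in them recruit decay factors. FOS and JUN proteins pair through leucine zippers to form the factor AP-1, EGR1 is a zinc finger activator, and several other members limit the response: ZFP36 promotes decay of AU-rich transcripts, DUSP1 removes phosphate from MAP kinases, and BTG2 restrains proliferation and binds the deadenylase complex.

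Stretches of promoter sequence are shown because they hold letters that factors named above are known to bind, in members whose levels are compared below. The TATA motif TATAAA, marked as well, is not among these letters. A promoter was found for 8 of the 10 genes in the RefSeq table (GRCm38.p6), and the 250 bases before the annotated start were searched on both strands. Capitals mark the full cyclic AMP element TGACGTCA and its core TGACGT in Dusp1, TGACGTCA in Btg2, the core and the TATA motif TATAAA in Fos, the related TGACATCA in Jun and the serum response element (CArG box) in Zfp36. Each is written 5′ to 3′ on the gene's own strand.
Fos, chr12:85473812-85473874, plus strand: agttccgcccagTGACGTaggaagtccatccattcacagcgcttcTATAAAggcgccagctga
Jun, chr4:95052248-95052279, minus strand: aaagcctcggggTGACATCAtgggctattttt
Btg2, chr1:134079302-134079333, minus strand: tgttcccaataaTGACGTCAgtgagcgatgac
Zfp36, chr7:28379265-28379298, minus strand: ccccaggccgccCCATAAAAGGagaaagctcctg
Dusp1, chr17:26508596-26508675, minus strand: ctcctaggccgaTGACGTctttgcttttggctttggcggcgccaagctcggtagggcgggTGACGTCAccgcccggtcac

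TGACGTCA was present in 2 of the 8 promoters against 1.55% of all 32851 promoter windows in the table. Its core TGACGT, which every full element also contains, was present in 3 of 8 against 6.47%, and the 5 letters TGACG, contained in both, in 5 of 8 against 17.8%. TGACATCA was found in 1 of 8 against 2.93%, the CArG box in 1 of 8 against 1.47%, and TATAAA in 1 of 8 against 12.4%. The AP-1 motif TGANTCA was in none of the 8 and in 6.75% of all windows. These are matches of letters within this window, and no binding was measured. Elements further from the start were not searched, so a motif not found here may lie outside the window.

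The targeted gene had lower values in the livers labelled mutant. The mean log2 signal of Dhx32 was 8.28, 8.85 and 8.62 in control replicates 1, 2 and 3, and 6.35, 6.60 and 7.04 in mutant replicates 1, 2 and 3, so the groups did not overlap. The difference was -1.92 (SE 0.23) with an adjusted p = 0.183 in limma, which did not pass the threshold of 0.05. Hepatocyte markers were bright on all 6 arrays, with a list mean between 12.85 and 13.02 over 8 genes, led by albumin (Alb) and Apoa1. Mutant replicate 1 stood apart from the rest of the series, with correlations to the other arrays of 0.935 to 0.940 over probe sets. Member differences and the lists of other genes that this array moves are therefore also given without it; for the lists this was chosen after the data were seen. In whole tissue, fewer cells of a type and less RNA per cell cannot be told apart. Log2 signals of these arrays are compared here only within a gene, since the brightness of a probe depends on its sequence.

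None of the 9 measured immediate early genes passed the test between mutant and control livers. The smallest adjusted p in limma, over all 15045 genes, was 0.943 among the members. At this threshold 1 gene of the array, Zfp874a, or 0.00665%, was called; it is named after its values were seen. At an unadjusted p under 0.05 the members gave 0 of 9, where 4.21% of all genes were reached, and in each of the 9 members the ranges of the 2 groups overlapped. Mutants had the higher mean in 6 members and the lower mean in 3, against 47.5% higher among all genes. The median difference, mutant minus control, was 0.10 on the log2 scale over the 9 members and -0.01 over all genes. Without mutant replicate 1, mutants were higher in 4 members and lower in 5, and the medians were -0.04 and 0.02. Among all 15045 genes 8158 were then higher and 6885 lower. The counts of lists given below without that array stand against these.

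**Figure D1:**
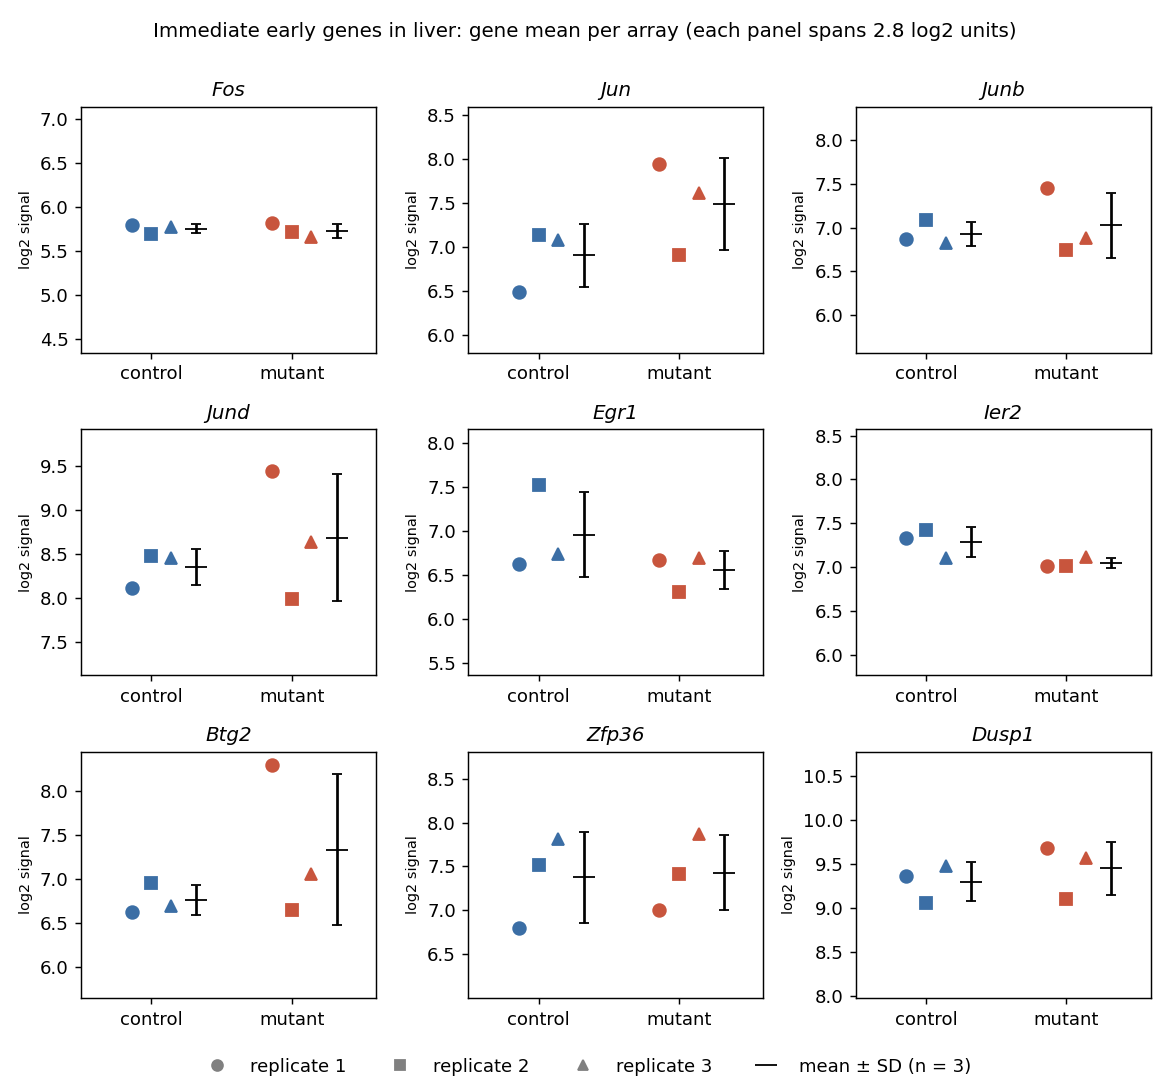
Mean log2 signal of each measured immediate early gene on each of the 6 arrays (y axis, log2 units; x axis, group), with the mean and SD of each group of 3 beside the points. The groups overlap in all 9 panels; mutant replicate 1 is the highest array for Fos, Jun, Junb, Jund, Btg2 and Dusp1, control replicate 2 is the highest for Egr1 and Ier2, and Fos spans 0.16.

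Fos, the founding partner of AP-1, had a gene mean that was nearly level across the 6 livers. Its mean over 7 probe sets was 5.79, 5.69 and 5.77 in the controls and 5.82, 5.71 and 5.66 in the mutants. All 6 arrays lay within 0.16 log2 units, a range narrower than that of all but 0.651% of the genes. The difference was -0.02 (SE 0.14), with a 95% interval from -0.34 to 0.30, and its sign turned under quantile normalization (0.01) and median centring (0.02). Without mutant replicate 1 it was -0.07. Single probe sets of Fos did not move together: 3 were higher and 4 lower in mutants. Each spanned between 0.60 and 1.16 log2 units over the 6 arrays, so the narrow range is that of their mean only. Probe set 5090870 read 4.34, 4.23 and 4.09 in controls and 3.17, 3.92 and 3.51 in mutants (-0.68, SE 0.28). Probe set 5143783 went the other way, from 3.998, 3.84 and 3.48 to 4.37, 4.19 and 4.06 (0.43, SE 0.26). Both were dim, the mutants lay apart from the controls in each, and neither passed over all 191663 probe sets (adjusted p = 0.994 in limma or higher).

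The genes whose deviations over the 6 arrays were most like those of Fos were likewise flat in their gene means. By the smallest root mean square difference they were Ror2 (0.03), Scube1 (0.03), Il12rb1 (0.03), Pla2g4e (0.03) and Rspo1 (0.03), in log2 units over 6 arrays. Their own ranges ran from 0.10 in Scube1 to 0.21 in Pla2g4e and Rspo1. A close match in this measure describes little variation rather than a shared pattern.

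Jun, which encodes a partner of FOS in AP-1, showed a difference of about the size of that of Btg2. The order of Jun and Btg2 depended on the arrays used. Its mean over 15 probe sets was 6.49, 7.14 and 7.09 in the controls and 7.95, 6.91 and 7.61 in the mutants. Mutant replicates 1 and 3 lay above every control, mutant replicate 2 lay inside the control range, and control replicate 1 was the lowest array. The control mean was 6.91 ± 0.36 (SD, n = 3) and the mutant mean 7.49 ± 0.53 (SD, n = 3), a 1.499-fold difference. The log2 difference was 0.58 (SE 0.29), with a 95% interval from -0.08 to 1.25 and an adjusted p = 0.943 in limma. It was 0.36 without mutant replicate 1, 0.38 without control replicate 1 and 0.87 without mutant replicate 2. In the last case the unadjusted p was 0.0101 and the adjusted p = 0.850, and over all alternatives the adjusted p of Jun ran from 0.627 to 0.9999.

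All 15 kept probe sets of Jun had a higher mean in mutants, by 0.11 to 0.97. Mutant replicate 1 lay above every control in each of the 15 and was the highest array in 13, and control replicate 1 was the lowest array in 11. The groups did not overlap in 3, namely 4337535, 5142643 and 5593154, with mutants higher each time, and these 3 also reached an unadjusted p under 0.05. Probe set 5593154 read 5.60, 5.68 and 5.61 in controls and 6.10, 6.48 and 7.07 in mutants, so mutant replicate 3 rather than 1 was the highest there. Jun has a single exon, and its probe sets share 1 transcript and the same 6 livers, so they are not separate comparisons. A further probe set, 5195006, had no group mean of 3 and was left out; it read 5.25 in mutant replicate 2 and between 1.38 and 2.85 on the other arrays.

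Junb, a JUN family member that is a weaker activator than JUN, differed little on average. It read 6.87, 7.08 and 6.82 in the controls and 7.45, 6.74 and 6.88 in the mutants over 6 probe sets. The highest array was mutant replicate 1, and mutant replicate 2 was lowest of all 6. The difference was 0.10 (SE 0.21; 95% interval -0.38 to 0.58). Without mutant replicate 1 it turned to -0.11.

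Jund, the JUN family member that many resting cells carry at a steady level, spread widely among the mutants. It read 8.12, 8.48 and 8.45 in the controls and 9.44, 7.99 and 8.63 in the mutants over 5 probe sets. Mutant replicate 1 was thus 2.13-fold above the control mean, while mutant replicate 2 was below all controls. The mutant range was 1.45 and the control range 0.36 in log2 units. The difference was 0.34 (SE 0.33; 95% interval -0.43 to 1.101). It was -0.04 without mutant replicate 1 and 0.69 without mutant replicate 2, where the unadjusted p was 0.0393 and the adjusted p = 0.850 in limma. All 5 probe sets of Jund had mutant replicate 1 as the highest array.

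Egr1, a zinc finger factor that is a sensitive readout of ERK signalling, was highest in a control liver. It read 6.62, 7.52 and 6.73 in the controls and 6.66, 6.30 and 6.69 in the mutants over 15 probe sets. Control replicate 2 lay 0.78 above the next array, and the other 5 livers fell between 6.30 and 6.73. The means were 6.96 ± 0.49 (SD, n = 3) and 6.55 ± 0.22 (SD, n = 3). The difference was -0.41 (SE 0.25, 95% interval -0.99 to 0.18). It was -0.13 without control replicate 2 and -0.46 without mutant replicate 1.

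The excess of control replicate 2 was uneven along Egr1. In 6 of the 15 probe sets it lay more than 1 log2 unit above the mean of the other 5 arrays, and in 2 it lay below that mean. Probe set 4472382 read 5.90, 8.91 and 7.07 in the controls and 5.50, 5.96 and 6.90 in the mutants, an excess of 2.64. Probe set 4412277 read 7.71, 9.68 and 8.23 in the controls and 7.62, 7.21 and 8.12 in the mutants, an excess of 1.90. By contrast probe set 4736839, among the brightest of the gene, stayed between 8.04 and 8.55 on all 6 arrays. The gene mean therefore averages probe sets that followed control replicate 2 with others that did not.

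Ier2, a small nuclear protein of the early response, had the closest mutant values of the 9 members, within 0.10 log2 units. It read 7.34, 7.43 and 7.10 in the controls and 7.02, 7.01 and 7.11 in the mutants over 3 probe sets. Mutant replicate 3 lay just above control replicate 3, so the groups overlapped by 0.01. The difference was -0.24 (SE 0.15; 95% interval -0.59 to 0.11), and all 3 probe sets had a lower mean in mutants, by 0.09 to 0.50. Leaving out single arrays moved the difference between -0.34 and -0.17, and without mutant replicate 1 it was -0.23.

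Btg2, the antiproliferative member, owed most of its difference to 1 liver. It read 6.63, 6.95 and 6.70 in the controls and 8.30, 6.65 and 7.06 in the mutants over 4 probe sets. The liver of mutant replicate 1 was 2.90-fold above the control mean and 1.24 log2 units above the next array. Mutant replicate 3 was slightly above the controls and mutant replicate 2 within them. The means were 6.76 ± 0.17 (SD, n = 3) and 7.33 ± 0.86 (SD, n = 3). The difference was 0.57 (SE 0.38; 95% interval -0.29 to 1.44), and 0.09 without mutant replicate 1. Without mutant replicate 2 it was 0.92, with an unadjusted p of 0.0360 and an adjusted p = 0.850 in limma. All 4 probe sets had mutant replicate 1 as the highest array, 1.14 to 1.84 above the control mean.

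Zfp36, which encodes the decay factor tristetraprolin, varied widely in both groups. It read 6.80, 7.51 and 7.81 in the controls and 7.01, 7.42 and 7.87 in the mutants over 7 probe sets. The groups thus covered nearly the same range, and mutant replicate 1 was on the low side. The difference was 0.06 (SE 0.30; 95% interval -0.64 to 0.75). It was 0.27 without mutant replicate 1, and turned to -0.23 without control replicate 1 and to -0.16 without mutant replicate 3. The brightest probe set, 5170814, read 10.2, 11.3 and 11.6 in controls and 10.8, 11.035 and 11.8 in mutants. Mutant replicate 3 was the highest array in 5 of the 7 probe sets, whereas in the dim probe set 5591599 it was the lowest.

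Dusp1, the phosphatase that switches off p38 and JNK, had close group means. It read 9.36, 9.05 and 9.48 in the controls and 9.68, 9.10 and 9.57 in the mutants over 6 probe sets. Mutant replicates 1 and 3 lay just above the controls, and mutant replicate 2 lay within them. The difference was 0.15 (SE 0.20; 95% interval -0.31 to 0.62), and leaving out 1 array moved it from 0.03 (without control replicate 2) to 0.33 (without mutant replicate 2). It was 0.04 without mutant replicate 1.

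**Figure D2:**
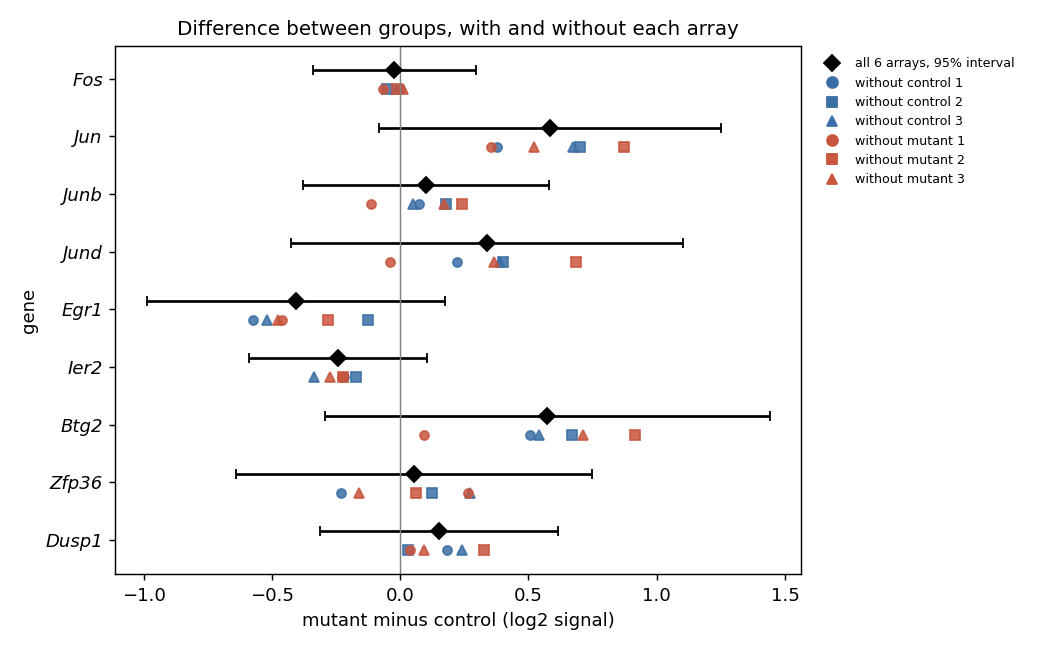
Difference between group means for each gene (x axis, mutant minus control in log2 signal; y axis, gene), as a diamond with its 95% interval in limma, and the same difference with 1 array left out as coloured symbols below it. Every interval spans 0; the Jund difference moves from 0.34 to -0.04 and the Btg2 difference from 0.57 to 0.09 without mutant replicate 1.

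Between single livers the members did not rise and fall as one block. Mutant replicate 1 was the highest array for 6 of the 9 genes (Fos, Jun, Junb, Jund, Btg2 and Dusp1), against 20.6% of all genes. Control replicate 2 was the highest for Egr1 and Ier2, against 15.9% of all genes, and mutant replicate 3 for Zfp36, against 24.9%. Mutant replicate 2 was the lowest array for 4 members, against 17.6% of all genes, and control replicate 1 for 3, against 12.2%. In Btg2, Jun and Jund the range over the 6 livers was wider than in 96.9%, 94.7% and 94.7% of genes, and in Egr1 than in 90.1%. Fos and Ier2 were at the other end, with ranges wider than in 0.651% and 22.8% of genes.

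The members whose promoter stretches are printed above are set side by side here as a description. Jun, with TGACATCA, spanned 1.45 log2 units over the 6 livers, with mutant replicate 1 highest. Btg2 and Dusp1 both hold TGACGTCA, and Btg2 spanned 1.67 log2 units over the 6 livers where Dusp1 spanned 0.63. Mutant replicate 1 was the highest array in both. Fos, with TGACGT, spanned 0.16. Zfp36, with the CArG box, had mutant replicate 1 below its control mean by 0.36.

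At the level of single probe sets the members again gave no call. Of 69 probe sets for the 9 genes 68 were kept, and none passed over the 191663 tested, where 0% were called. At an unadjusted p under 0.05 there were 4 of 68, of which 3 were in Jun and 1 in Fos, against 4.07% of all probe sets. The groups did not overlap in 6 with mutants higher and in 1 with mutants lower, against 4.01% and 4.44% of all probe sets. The 6 were the 3 of Jun named above and 1 each of Fos, Junb and Btg2. In 34 of the 68 the highest array was mutant replicate 1.

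Exon usage, in which each probe set is set against the others of the same gene, was tested because the study was designed around exons. With the diffSplice F-test in limma none of the 9 members passed, each with an adjusted p = 1, where 0.21% of 14310 genes were called. None reached an unadjusted p under 0.05, against 4% of all genes. The smallest unadjusted p was that of Fos (0.107), where the dim probe sets described above moved in opposite directions. For Egr1 it was 0.854, and for Jun 0.979, with all probe sets of Jun shifted the same way. Because Jun has a single exon, the test there compares stretches of the same exon and cannot find a change of exons.

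**Figure D3:**
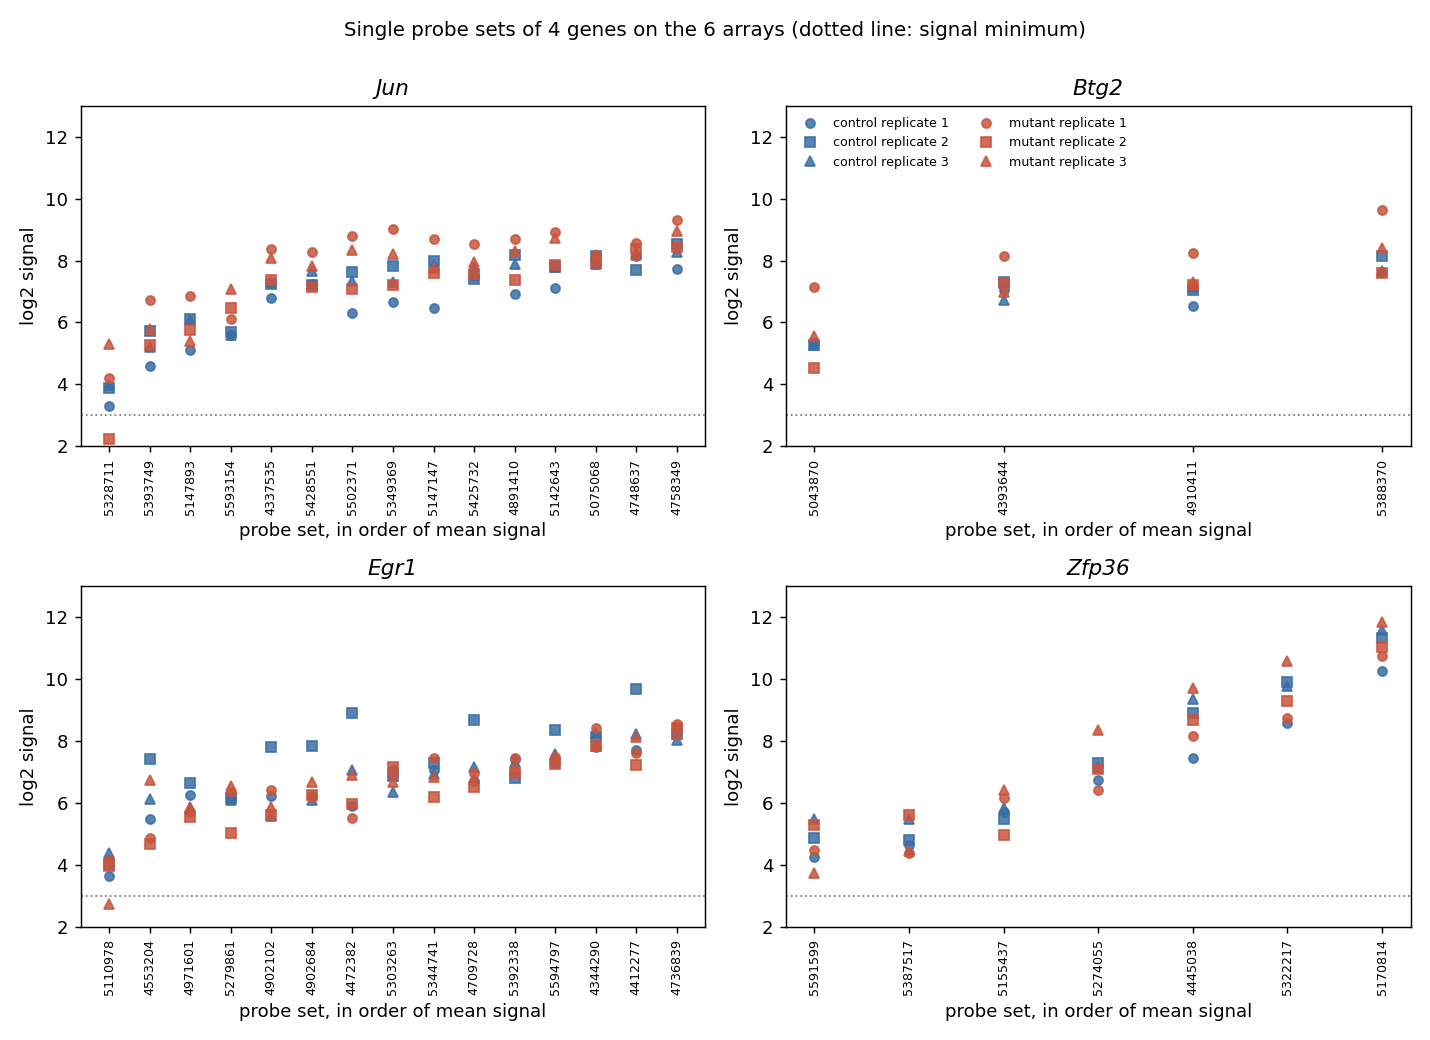
Log2 signal (y axis) of each kept probe set (x axis, ordered by mean signal) of Jun, Btg2, Egr1 and Zfp36 on the 6 arrays, with controls in blue, mutants in red and the signal minimum of 3 as a dotted line. Mutant replicate 1 is the highest point in 13 of 15 probe sets of Jun and in all 4 of Btg2, and control replicate 2 is the highest in 8 of 15 of Egr1.

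Among 44 other early response genes measured, 24 had a higher mean in mutants and 20 a lower one, with a median difference of 0.08, and 0 passed over all genes in limma. Without mutant replicate 1, 19 were higher and 25 lower, with a median of -0.03. At an unadjusted p under 0.05, 0 were higher and 3 lower of the 44, where 4.21% of all genes were reached in either direction. These were Zfp36l1, a relative of Zfp36 (-0.57, SE 0.14), Maff, a small MAF protein (-0.45, SE 0.16), and Btg1, the relative of Btg2 (-0.36, SE 0.14). Zfp36l1 read 8.99, 9.08 and 8.96 in the controls and 8.34, 8.52 and 8.44 in the mutants, with no overlap and an adjusted p = 0.943. Btg1 read 9.18, 9.24 and 9.18 in the controls and 8.70, 8.91 and 8.91 in the mutants, also with no overlap. Maff read 6.33, 6.70 and 6.51 against 5.93, 6.09 and 6.16. The groups did not overlap with mutants lower in these 3, where 4.32% of all genes did so, and with mutants higher in 1, Egr2, against 5.15%. Egr2 was chosen after its values were seen and differed by 0.21. Gadd45a, a growth arrest gene, differed by -0.75 (SE 0.35) with overlapping groups. In this list mutant replicate 1 was the highest array for 13 of 44 genes.

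Lists of genes that act on or with the members gave no call in limma over all genes either, and their counts at an unadjusted p under 0.05 stand against 4.21% of all genes. Some genes stand in more than 1 list, so the counts are not separate. Maff, Atf3, Fosl1 and Fosl2 are also among the early response genes above. So are Zfp36l1, Zfp36l2, Btg1, Tob1 and Tob2 of the decay list below, and the phosphatases Dusp2, Dusp4 and Dusp6. Of 13 other AP-1 and ATF subunits, 0 higher and 1 lower (Maff again) were at an unadjusted p under 0.05. Of these 13 subunits 6 were higher and 7 lower (median -0.08, and -0.04 without mutant replicate 1). Among them Atf3, a stress-induced subunit, read 5.50, 5.72 and 5.61 in controls and 6.69, 5.36 and 5.77 in mutants, so mutant replicate 1 was again the highest, and the difference of 0.34 became -0.04 without it. Fosl1 differed by 0.28 (SE 0.17) and Mafg by -0.28 (SE 0.17; -0.16 without mutant replicate 1). Of 22 genes of the ERK, SRF and CREB inputs 10 were higher and 12 lower (median -0.07, and -0.03 without mutant replicate 1), with 0 at an unadjusted p under 0.05. Crem, a CREB relative, differed by 0.34 (SE 0.16) and Sos1, a RAS activator, by -0.55 (SE 0.25, or -0.27 without mutant replicate 1). The groups did not overlap with mutants higher in 1 of the 22 (Crem) and lower in 1 (Sos1). Among all genes the shares were 5.15% and 4.32%. Egfr differed by 0.39 (SE 0.21) and the coactivator Ep300 by -0.37 (SE 0.21). Of 15 genes of the JNK and p38 inputs 4 were higher and 11 lower (median -0.10, and -0.06 without mutant replicate 1), with 1 at an unadjusted p under 0.05, the kinase Map3k5 (-0.94, SE 0.40). Map3k5 read 7.78, 9.03 and 9.42 in controls and 7.57, 7.61 and 8.23 in mutants, and control replicate 1 lay among the mutants. Map2k6 differed by -0.85 (SE 0.48; -0.35 without mutant replicate 1), Mapk9 by -0.29 (SE 0.26; 0.01 without it) and Map3k7 by -0.20 (SE 0.17; -0.13 without it).

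The list for decay of early transcripts holds decay factors and also other RNA-binding proteins, Elavl1, Tia1 and Tial1 among them. Its genes had lower means in mutants in 17 of 23 and higher in 6, with a median of -0.23 against -0.01 for all genes. None passed over all genes, and 2 of the 23, Zfp36l1 and Btg1, were at an unadjusted p under 0.05, against 4.21% of all genes. Pan3, of a deadenylase complex, differed by -0.43 (SE 0.20), or -0.22 without mutant replicate 1, and the RNA-binding protein gene Tial1 by -0.29 (SE 0.15). The groups did not overlap with mutants lower in 5 of the 23, Pan3 and Tial1 among them, against 4.32% of all genes. With mutants higher this was so in 0, against 5.15%. The list mean differed from the control mean by -0.39, -0.16 and 0.04 log2 units in mutant replicates 1, 2 and 3, so mutant replicate 3 was within the controls. Without mutant replicate 1, 13 of the 23 were lower and 10 higher, with a median of -0.01. Of 8 other MAP kinase phosphatases 2 were higher and 6 lower (median -0.07), and without mutant replicate 1 all 8 were lower (median -0.18). Dusp6, which acts on ERK, differed by -0.54 (SE 0.30), Dusp7 by -0.27 (SE 0.19), Dusp4 by -0.13 (SE 0.26; -0.24 without that array) and Dusp8 by 0.25 (SE 0.30; -0.13 without it).

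Other gene groups had high values in the liver in which several members were highest. In mutant replicate 1 acute phase genes lay 1.81 log2 units above the control mean over 15 genes, against 0.75 and 0.49 in mutant replicates 2 and 3. Lcn2, Saa3, Hp and Apcs, which are secreted in inflammation, had the smallest p of that list, with differences of 4.32, 3.29, 0.92 and 2.28. Without mutant replicate 1 these were 3.35, 2.08, 0.56 and 1.57, and 12 of the 15 genes were higher. Heat shock genes lay 0.31 above in mutant replicate 1 over 11 genes, against 0.19 and 0.12, with Hsph1 at 0.63 (SE 0.24), Dnajb1 at 0.42 (SE 0.15), Bag3 at 0.51 (SE 0.26) and Hspa1a at 0.34 (SE 0.29). Without that array Hsph1 differed by 0.35, Bag3 by 0.20, Dnajb1 by 0.46 and Hspa1a by 0.37, and 10 of the 11 genes were higher. The highest array was mutant replicate 1 for 5 of the 11 and mutant replicate 2 for another 5. No gene of either list passed over all genes in limma. At an unadjusted p under 0.05 were 7 of the 15 and 2 of the 11, all of them higher in mutants. Among all genes 4.21% were reached in either direction.

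Markers of other cells that liver tissue holds also differed in that array. The 12 Kupffer cell and macrophage markers had a mean log2 signal of 7.86 to 8.26 in the controls and 8.72, 7.87 and 7.88 in mutant replicates 1, 2 and 3, and mutant replicate 1 was highest for 9 of the 12, including C1qb and Cd5l. The 9 neutrophil markers were dim, at 4.70 to 4.88 in the controls and 5.63, 4.81 and 4.74 in the mutants, with mutant replicate 1 highest for 7 of 9. Of the 2 brightest, Cxcr2 read 6.33 in mutant replicate 1 against a control mean of 5.81, and Camp read 5.34 against 5.69. The 7 bile duct markers stood at 5.79 to 5.97 in the controls and 6.36, 5.82 and 6.05 in the mutants. Spp1 read 10.1 in mutant replicate 1 against a control mean of 7.62, and Sox9 read 7.85 against 7.28. Without Spp1 the other 6 stood at 5.52 to 5.65 in the controls and 5.73, 5.54 and 5.64 in the mutants. The mean of the stellate cell markers was lowest in mutant replicate 1, at 7.09 against 7.52 to 7.72 in the controls over 12 genes, led by Dcn and Reln. For 3 of these 12, however, mutant replicate 1 was the highest array. The 12 endothelial markers, led by Clec4g and Stab2, stood at 8.31 to 8.73 in the controls and 8.42, 8.03 and 8.80 in the mutants. The 10 lymphocyte markers, led by Cd3e and Cd79b, ranged from 5.08 to 5.29 over all arrays. Markers were averaged over probe sets already kept at the signal minimum of 3, so a marker without such probe sets does not appear. The part of these groups in the levels of Jun, Jund, Junb and Btg2 was not tested.

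**Figure D4:**
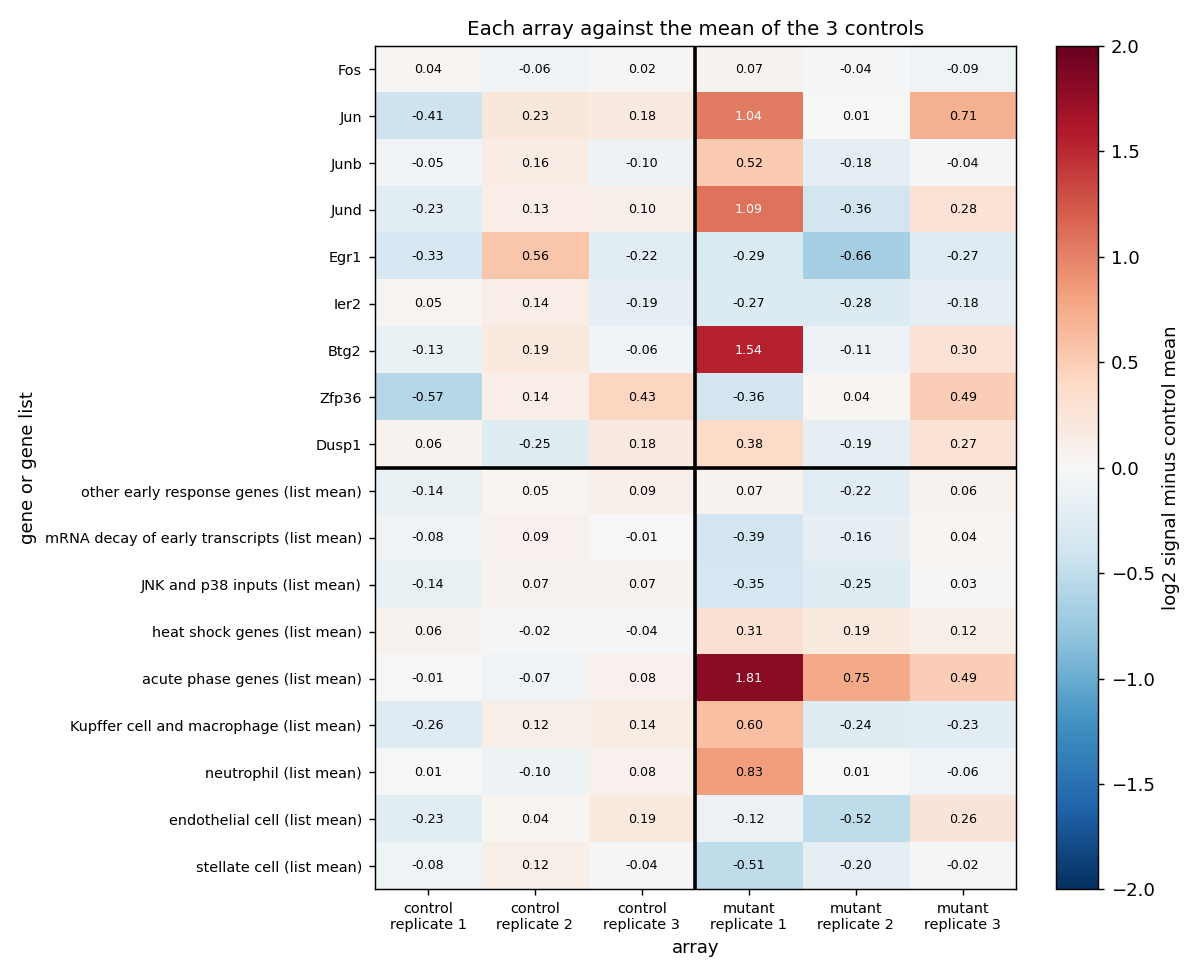
Log2 signal minus the mean of the 3 controls (colour and printed value) for each measured immediate early gene and for the mean of 9 gene lists (y axis) on each array (x axis). Mutant replicate 1 is above the control mean by 1.54 for Btg2, 1.09 for Jund and 1.04 for Jun, by 1.81 for the acute phase list and by 0.60 for macrophage markers, and below it by 0.29 for Egr1 and 0.36 for Zfp36.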

How the data were processed

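Total RNA was amplified, biotin-labelled and hybridised to 6 exon arrays, per the labels' protocols. The deposited values are log2 signals for 204531 probe sets. The submitters' processing notes list Affymetrix Expression Console 1.1, RMA, Partek 6.4 and mm9 but not the step each served. RMA as usually run draws arrays together by quantiles and compresses dim differences. Whether this holds for the deposited values is not known, since its step is not given. Array medians were 6.73 to 6.95. There is no read depth; the number of arrays limits the precision.

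Single gene symbols (185264 probe sets) were updated through RefSeq (GRCm38.p6, used for names and promoters only). Probe sets with a group mean of 3 or more were kept, and averaged per gene (at least 2). Groups were compared with limma 3.58.1 (lmFit, eBayes; R 4.3.3), two-sided, with Benjamini-Hochberg adjustment over all features and a threshold of 0.05; exon usage used diffSplice with at least 3 probe sets. Steps were tested on simulated data. All members were named, with up to 4 genes of smallest p per pathway list, 2 brightest per marker list and 5 most like Fos. Members and lists were chosen with earlier results of these data known. Same-numbered mice were not treated as paired. Deviations of pairs 1, 2 and 3 correlated at 0.01, -0.11 and 0.12. Between different numbers the correlations ran from -0.19 to 0.17, so these values cannot decide whether the mice were paired. Alternatives were other signal minimums, normalizations, gene summaries, moderation, weights, a replicate block and leaving out each array.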

Additional observations from a re-analysis of the deposited data

How the results depend on the processing

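No member passed the adjusted threshold at gene level under any of 14 alternatives (smallest adjusted p = 0.614), nor at probe set level under 9, nor for exon usage under 8. Of 126 recomputed member differences 114 kept their direction, and 5 members kept it throughout: Jun, Egr1, Ier2, Btg2 and Dusp1. The sign turned for Fos at a signal minimum of 5 (0.019), quantile normalization (0.011), median centring (0.023) and gene medians (0.075). With array weights, which give mutant replicate 1 a weight of 0.384, it turned for Junb (-0.054), Jund (-0.044) and Zfp36 (-0.038), the members' median difference was -0.038, and 3 members were higher. Leaving out 1 array gave differences of -0.066 to 0.011 for Fos, -0.11 to 0.24 for Junb, -0.039 to 0.69 for Jund, -0.23 to 0.27 for Zfp36, 0.029 to 0.33 for Dusp1, 0.36 to 0.87 for Jun, 0.091 to 0.92 for Btg2 and -0.57 to -0.13 for Egr1. The members' median then ran from -0.039 (without mutant replicate 1) to 0.24 (without control replicate 3), the members at an unadjusted p under 0.05 from 0 to 3, and their probe sets from 1 (without mutant replicate 1 or 3) to 12 (without mutant replicate 2). With no signal minimum 1 member, Jun, was at an unadjusted p of 0.0487. All genes past the threshold numbered 0 with no signal minimum, 2 with quantile normalization, median centring or array weights, and 0 to 3 with 1 array left out (3 without control replicate 1). The replicate block gave 0 genes, and 2 member probe sets at an unadjusted p under 0.05. It changed no call of a member, and whether the numbers pair the mice is not known. The cause of these changes was not tested. Probe sets near a log2 signal of 3 lie close to background, which limits the dim probe sets of Fos and Jun.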
